A study of Mus musculus with 18 samples.

Results

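Kidney cortex of MRL/lpr mice given mycophenolate mofetil (MMF) was compared with that of MRL/lpr mice given FK506 (tacrolimus). The comparison holds 3 MMF mice (numbers 1, 14 and 27) and 3 FK506 mice (numbers 3, 12 and 24), 6 of the 18 RNA sequencing libraries of the series, chosen by their treatment labels. All 6 have the genotype given as Mrl/lpr, a strain whose Fas mutation causes lymphoproliferation and a lupus-like nephritis, so neither group is free of the disease. Vehicle-treated Mrl/lpr mice (3) and healthy controls (3), whose genotype is given as Mrl/Mpj wild type, served as reference levels. All 18 libraries, healthy ones included, entered the estimate of the spread. Levels of the 6 mice on prednisone or the multi-target treatment are given only where stated. The labels give no dose, duration, age or sex for these mice. The treatment field spells the second drug FK5O6, with a letter O, where the sample titles have FK506.

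The 2 drugs act on lymphocytes at different points. MMF is converted to mycophenolic acid, which inhibits inosine monophosphate dehydrogenase (IMPDH), the rate-limiting enzyme of guanine nucleotide synthesis on which dividing T and B cells depend. FK506 binds the protein FKBP12 (gene Fkbp1a), and this complex inhibits calcineurin, the phosphatase that lets NFAT transcription factors enter the nucleus and switch on cytokine genes such as Il2. Calcineurin is also present in tubule cells, and FK506 is known clinically for effects on renal blood flow and on distal tubule salt transport.

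Values are the deposited log2 expression values, in which a difference of 1 is a doubling. The gene values amounted to 32293698, 30223265 and 28939845 reads in MMF mice 1, 14 and 27, and to 32421226, 38969748 and 37516041 reads in FK506 mice 3, 12 and 24, so every MMF library was shallower than every FK506 library; the part of depth in the differences was not tested. All 24 proximal tubule, 26 loop and distal tubule, 18 collecting duct and 14 podocyte markers listed were measured. Every library holds the same gene symbols, so this cannot test the kidney label. The mean podocyte level lay 0.01 to 0.38 above healthy in the 6 libraries. FK506 mouse 12 also held adrenal transcripts: Cyp11b1, the adrenal enzyme of corticosteroid synthesis, stood at 11.47 there and at 4.20 to 4.87 in the other 5 libraries. Over the 13 measured adrenal markers, that library lay 3.47 above the healthy mean, against -0.29 to 0.31 for the others.

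No single gene separated MMF from FK506 kidneys past the test. None of 15035 genes passed limma's moderated test at a Benjamini-Hochberg adjusted p of 0.05 (0 genes, 0%), and the smallest adjusted p was 0.0659. In a limma fit of only the MMF and FK506 libraries, the smallest adjusted p was 0.822. At an unadjusted p under 0.05 there were 850 genes (5.65%), 174 higher and 676 lower in MMF. All 3 MMF mice lay above all 3 FK506 mice in 226 genes (1.5%), and below all of them in 799 genes (5.31%). The estimate was below 0 in 8774 genes (58.4%), with a median of -0.04. This outcome depended on MMF mouse 1: without it, 658 genes (4.38%) were higher and 725 (4.82%) lower at the same threshold. The precision of the comparison was moderate. The 95% interval of the difference had a median half-width of 0.39, and it lay wholly within a 2-fold change in either direction (between -1 and 1) for 12867 genes (85.6%). These widths rest on the spread pooled over all 18 libraries. The median within-group SD was 0.08 in healthy mice, 0.27 in MMF mice and 0.17 in FK506 mice.

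The 12 genes with the smallest p among those wholly lower in MMF are described first. None passed the adjusted test. Dusp14 (chr11:84048041-84069261, GRCm38), a dual-specificity phosphatase that restrains T cell receptor and TAK1 signalling, came nearest. It stood at 9.36, 8.94 and 8.99 in MMF mice 1, 14 and 27 and at 9.79, 10.02 and 9.81 in FK506 mice 3, 12 and 24, a difference of -0.78 (SE 0.11, 95% interval -1.01 to -0.54, limma adjusted p = 0.0659). The vehicle mean for Dusp14 was 9.85 and the healthy mean 9.77, so the FK506 mice lay near both reference levels and the MMF mice under them.

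Mavs, the mitochondrial adaptor of cytosolic RNA sensors, showed the same order with a smaller distance. It was 11.82, 11.59 and 11.68 in the MMF mice and 12, 12.13 and 12.09 in the FK506 mice (difference -0.37, SE 0.09, adjusted p = 0.687 in limma). Vav2, an exchange factor for small GTPases downstream of antigen receptors, was 10.03, 10.08 and 10.19 against 10.52, 10.72 and 10.31 (-0.42). The other genes of this group have varied roles. They were Impa1, inositol monophosphatase (-0.56), Ppp1r10, the nuclear targeting subunit of protein phosphatase 1 (-0.83), Kdm1b, a histone demethylase (-0.44), Nhlrc1, the ubiquitin ligase malin (-0.83), Dcun1d4, a factor of cullin neddylation (-0.38), and Mfhas1, a leucine-rich repeat protein (-0.50). Thap2, Tmppe and Fam187b stood at -0.74, -0.49 and -0.72.

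Among genes wholly higher in MMF, Sesn2 (chr4:132492032-132510501, GRCm38) had the smallest p. Sesn2 encodes sestrin 2, a p53-induced and stress-induced inhibitor of mTORC1 signalling. It measured 11.86, 13.15 and 12.48 in MMF mice 1, 14 and 27 and 11.25, 11.56 and 11.39 in the FK506 mice, a difference of 1.10 (SE 0.23, 95% interval 0.60 to 1.59, limma adjusted p = 0.687). The healthy mean was 11.82, which MMF mouse 1 matched and the other 2 MMF mice exceeded. Agpat9, an acyltransferase of triglyceride synthesis, was 11.97, 12.43 and 12.11 against 11.42, 11.33 and 11.33 (0.81). Mxd1, a partner of MAX that opposes MYC, was 9.97, 10.38 and 10.31 against 9.91, 9.69 and 9.84 (0.41). In Mxd1 MMF mouse 1 sat just above the highest FK506 mouse, and Tulp3 (0.38), a ciliary trafficking protein, and Smyd3 (0.36), a lysine methyltransferase, had the same arrangement.

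The remaining 7 of the 12 were spread over membrane and organelle functions. Pikfyve, an endosomal lipid kinase, stood at 0.27, Tomm34, a mitochondrial import factor, at 0.41, Rrs1, a ribosome assembly factor, at 0.27, and Hps4, a factor of lysosome-related organelles, at 0.25. Sertad4 (1.00), Tmem140 (0.58) and Tmem252 (1.16) had larger estimates with wider intervals, for Tmem252 from 0.33 to 2.

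**Figure D1:**
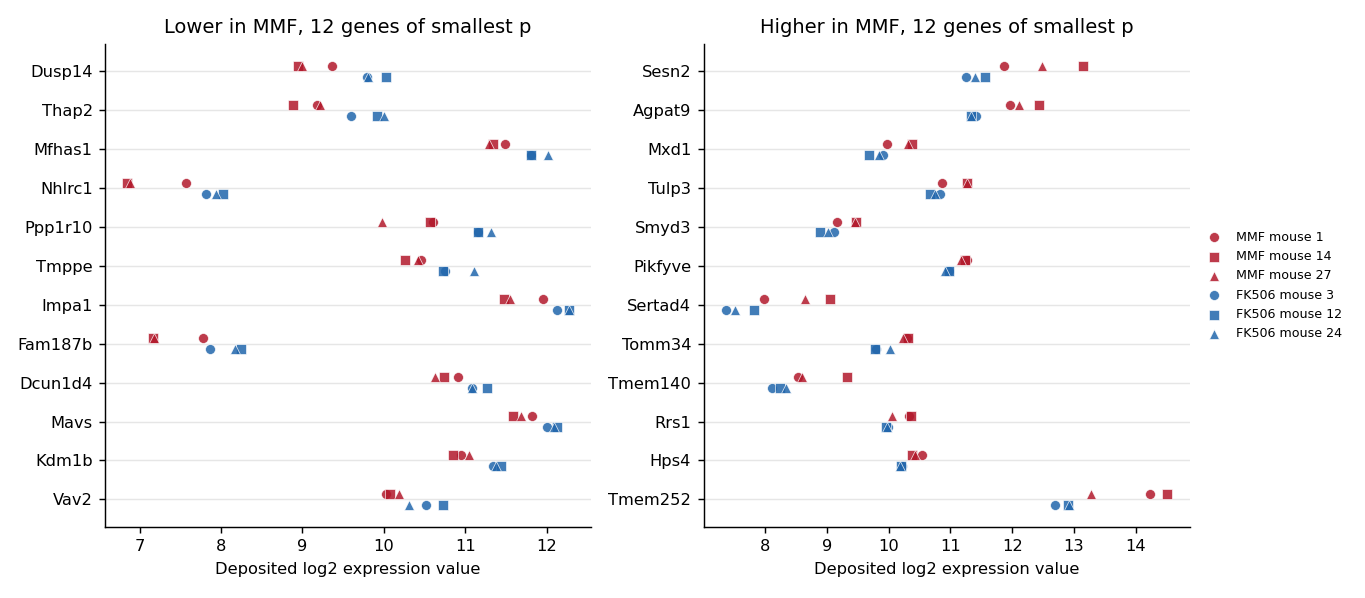
Deposited log2 expression value (x axis) of the 12 genes lower and the 12 genes higher in MMF with the smallest p among genes whose groups do not overlap (y axis), with 1 point for each of 3 MMF (red) and 3 FK506 (blue) mice. In Dusp14 the MMF mice sit at 8.94 to 9.36 and the FK506 mice at 9.79 to 10.02; no gene plotted passed the adjusted test.

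Slc10a2, the apical sodium-dependent bile acid transporter of ileum and proximal tubule, was picked after its values were seen because of the size of its difference. MMF mice 1, 14 and 27 had 8.74, 8.59 and 8.69, and FK506 mice 3, 12 and 24 had 10.35, 10.57 and 11.19. The MMF mice were close to each other (SD 0.08), and all lay under the vehicle mean of 9.84 and the healthy mean of 11.14. The difference of -2.03 (SE 0.51), a 4.08-fold higher level in FK506, did not pass (adjusted p = 0.687 in limma).

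The largest variation among the 6 libraries ran within the drug groups. The first principal component held 66% of their variance and placed MMF mouse 1 (46.6) beside FK506 mouse 24 (38.7). MMF mice 14 (-38.6) and 27 (-41.1) lay at the other end, with FK506 mice 3 (-8.6) and 12 (3.0) between. Across all genes, MMF mouse 1 correlated at 0.989 with FK506 mouse 24 but at 0.944 and 0.942 with MMF mice 14 and 27, which correlated at 0.989 with each other; genes are not independent replicates, so these are descriptions. The median within-group SD was 0.27 in MMF, 0.17 in FK506 and 0.11 over MMF mice 14 and 27 alone. The second component (12.5%) set FK506 mouse 12 apart, at 30.5 against -11.8 to 5.4, the library with the adrenal transcripts.

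The 5 genes with the largest loadings at each end of the first component were named after their values were seen. Kap, the androgen-regulated kidney protein abundant in proximal tubule, measured 15.87, 10.71 and 7.79 in MMF mice 1, 14 and 27 and 12.14, 12.07 and 17.42 in FK506 mice 3, 12 and 24. MMF mouse 27 held the lowest Kap value of all 18 libraries, and MMF mouse 1 and FK506 mouse 24 were nearest to the healthy mean of 17.81. Havcr1, encoding the tubular injury marker KIM-1, was 12.20, 8.94 and 7.24 against 8.47, 9 and 12.68, with vehicle at 12.52 and healthy at 12.24. Chrm2, a muscarinic receptor, Dleu7 and Scrg1 had the same high pair of MMF mouse 1 and FK506 mouse 24. In Chrm2 that pair stood at 10.72 and 12.16, and the other 4 libraries at 5.28 to 7.08.

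At the opposite end, Igfbp1, the insulin-like growth factor binding protein induced by fasting and stress, was 9.70, 14.91 and 13.42 in the MMF mice and 11.07, 10.49 and 9.78 in the FK506 mice. MMF mouse 14 had the highest Igfbp1 value of all 18 libraries, against a healthy mean of 10.15. Ndnf, a secreted neuron-derived factor, was 4.09, 9.91 and 9.19 against 5.53, 4.31 and 3.49. MMF mice 14 and 27 were thus both far above every other mouse compared in Ndnf, and MMF mouse 1 was at the level of the FK506 mice. Armc12, Psg16 and Olfr178 differed in that FK506 mice 3 and 12 were also high: for Armc12 the values were 4.72, 9.43 and 9.80 against 8.27, 7.22 and 5.03.

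**Figure D2:**
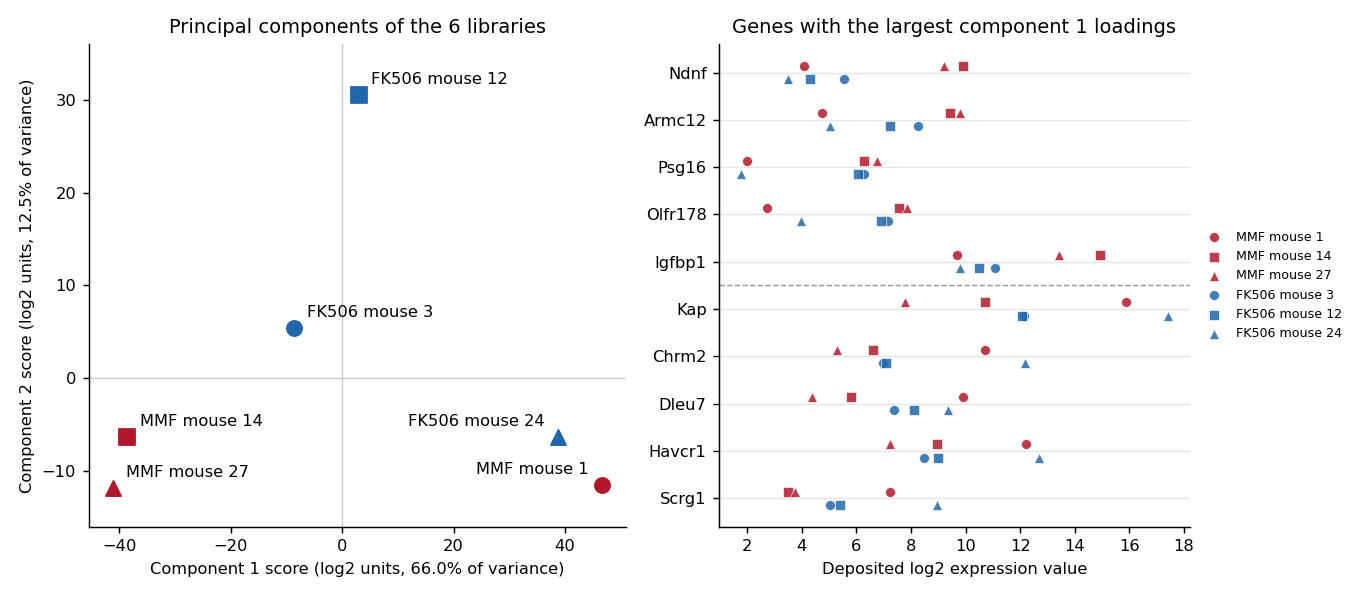
Left, scores of the 6 libraries on the first and second principal components (log2 units), with MMF mice in red and FK506 mice in blue; MMF mouse 1 lies beside FK506 mouse 24, and FK506 mouse 12 stands apart on the second. Right, deposited log2 expression values (x axis) of the 5 genes with the largest loadings at each end of the first component, 1 point for each mouse.

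The drug target genes were compared to see whether either pathway carried a transcript difference. Impdh1 (chr6:29200434-29216364), 1 of the 2 IMPDH genes that mycophenolic acid inhibits, was 8.73, 8.69 and 8.54 in the MMF mice and 8.81, 9.18 and 8.81 in the FK506 mice. Its groups did not overlap, but the difference of -0.28 (SE 0.18) had a 95% interval of -0.67 to 0.11. Impdh2 (chr9:108560286-108565584), the form induced in dividing lymphocytes, was 11.05, 11.30 and 11.35 against 11.20, 11.45 and 10.92, a difference of 0.04 (-0.32 to 0.41). Changes of Impdh2 beyond 0.41 in either direction therefore fall outside the interval.

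All 13 listed genes of de novo purine synthesis were measured, and 7 lay below 0, with a median of -0.01. Pfas, the FGAM synthetase of that pathway, was the member with the smallest p, at 10.08, 9.81 and 10.15 in MMF and 10.36, 10.54 and 10.26 in FK506 (-0.37, SE 0.13). Gart, a multifunctional enzyme of the same pathway, leaned the other way at 0.15 (95% interval -0.03 to 0.32). The 14 genes of purine salvage and breakdown had a median of -0.18, with 10 below 0. Nt5e, the ecto-nucleotidase CD73 that makes adenosine, was wholly lower in MMF: 11.25, 11 and 11.14 against 11.57, 11.71 and 11.80 (-0.57, SE 0.20). Ampd2, an AMP deaminase, was -0.39. The 12 pyrimidine synthesis genes had a median of -0.03. Cad, the first enzyme of that pathway, was 9.55, 9.04 and 9.27 against 9.63, 9.63 and 9.60 (-0.33). No member of these 3 lists passed the adjusted test.

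On the side of FK506, the genes of its binding protein and of calcineurin were near equal in both groups. Fkbp1a, encoding FKBP12, was 12.99, 12.24 and 12.16 in MMF and 12.25, 12.51 and 12.73 in FK506, a difference of -0.04 (95% interval -0.50 to 0.43). The catalytic subunit gene Ppp3cb differed by 0.01 (-0.23 to 0.25) and the regulatory subunit gene Ppp3r1 by 0.02 (-0.21 to 0.26). Ppp3ca, the catalytic alpha subunit, was 11.67, 12.11 and 12.14 against 11.70, 11.66 and 11.68. The 3 FK506 mice lay between 11.66 and 11.70 in Ppp3ca, and MMF mouse 1 stood among them, so the difference of 0.29 (SE 0.11, limma adjusted p = 0.866) rests on MMF mice 14 and 27. The whole list of 19 calcineurin, FK506-binding and NFAT genes had a median of -0.04, with 10 below 0.

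Readouts of calcineurin activity overlapped between the drugs. Rcan1 (chr16:92391953-92470867), a calcineurin inhibitor that NFAT itself induces, was 12, 11.09 and 10.37 in MMF and 11.31, 11.35 and 11.78 in FK506 (-0.33, 95% interval -1.08 to 0.43). The vehicle mean of Rcan1 was 12.53 and the healthy mean 12.02. Nfatc1, which NFAT also induces, differed by 0.14 (-0.20 to 0.48). Of 15 listed NFAT target genes 11 were measured and 9 lay below 0, with a median of -0.30; their mean level above healthy was 1.08, 0.68 and 0.20 in MMF and 1.25, 1.14 and 0.87 in FK506. With quantile normalization 6 of the 11 were below 0, with a median of -0.16. Icos, a T cell costimulatory receptor, was the only member of this list wholly lower in MMF (9.09%, against 5.31% of all genes). It measured 5.89, 5.46 and 5.90 against 6.88, 6.51 and 6.38 (-0.84, SE 0.33). Egr2 (-1.42) and Tnf (-1.44) had lower estimates with intervals from -3.97 to 1.14 and from -3.29 to 0.40.

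**Figure D3:**
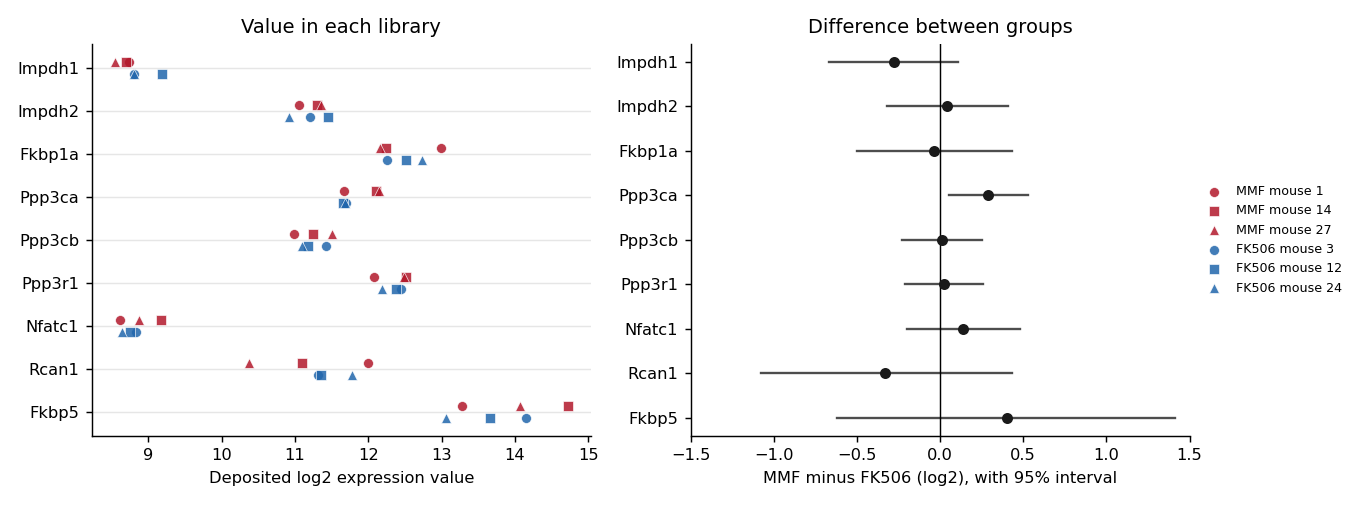
Left, deposited log2 expression values (x axis) of the drug target and drug response genes (y axis) in 3 MMF mice (red) and 3 FK506 mice (blue). Right, the MMF minus FK506 difference (log2) with its 95% interval; the intervals of Impdh1, Impdh2, Fkbp1a, Ppp3cb, Ppp3r1, Nfatc1, Rcan1 and Fkbp5 include 0, and that of Ppp3ca runs from 0.05 to 0.53.

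Transport genes of the distal nephron and collecting duct lay lower in MMF than in FK506 in nearly every member, though no single gene passed the adjusted test. In bulk cortex, fewer cells of a type and less RNA per cell cannot be told apart. Of 18 collecting duct genes 17 had an estimate below 0, with a median of -0.36, and 6 (33.3%, against 5.31% of all genes) had every MMF mouse below every FK506 mouse. Of 26 genes of the loop of Henle and distal tubule 25 were below 0, with a median of -0.28, and 7 (26.9%) did not overlap. Both lists were written with earlier results of these data known, and members of a segment vary together between mice, so the shares are descriptions.

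The water channel genes of the collecting duct principal cell did not overlap between the drugs. Aqp3 (chr4:41092722-41098183), the basolateral water channel, was 11.96, 11.70 and 11.64 in the MMF mice and 12.56, 12.42 and 12.44 in the FK506 mice (-0.71, SE 0.17, 95% interval -1.07 to -0.34, limma adjusted p = 0.687). Aqp2 (chr15:99579055-99584547), the vasopressin-regulated apical water channel, was 12.27, 12.15 and 11.20 against 13.05, 12.84 and 13.02 (-1.09, SE 0.39). In both genes the 2 groups were apart, and in Aqp2 MMF mouse 27 was the lowest by about 1 unit. Aqp4 was 10.98, 11.36 and 10.78 against 11.80, 12.06 and 12.96 (-1.23), and its interval of -2.91 to 0.45 was the widest of the list. The vasopressin receptor gene Avpr2 overlapped (-0.75), and the subunits of the epithelial sodium channel were nearer to 0: Scnn1a -0.01, Scnn1b -0.15 and Scnn1g -0.09.

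Acid-base genes of the intercalated cells ranged from -1.01 to 0.03. Slc4a1, the basolateral anion exchanger of acid-secreting cells, was 10.82, 10.23 and 10.76 in MMF and 11.63, 11.69 and 11.51 in FK506 (-1.01, SE 0.34). Rhcg, an ammonia channel, was 12.19, 11.99 and 12.04 against 12.36, 12.64 and 12.66 (-0.48). Atp6v1b1, a proton pump subunit, also did not overlap (-0.34). Slc26a4, the pendrin gene of bicarbonate-secreting cells, had a similar estimate (-0.38) with overlapping groups. Slc4a1 is also the band 3 protein of red cells. The 6 measured red cell transcripts averaged -0.62, -0.62 and 0.45 from healthy in MMF and 0.18, -0.39 and 0.65 in FK506, with Hbb-bs at -0.18 and Bpgm at -0.09, and their part in the Slc4a1 difference was not tested.

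In the thick limb and distal tubule, Kcnj1 (chr9:32372493-32399197), the potassium channel ROMK, was 13.82, 13.44 and 13.49 in MMF and 13.84, 14.15 and 14.23 in FK506 (-0.49, SE 0.17). Slc8a1, the sodium-calcium exchanger of the distal tubule, was 11.32, 11.32 and 11.67 against 11.80, 12.25 and 12.04 (-0.59, SE 0.24). Kcnj10, a basolateral potassium channel that governs salt transport in the distal convoluted tubule, was 12.31, 12.61 and 12.59 against 12.85, 12.84 and 12.70 (-0.29, SE 0.11). In Kcnj1 the highest MMF mouse almost touched the lowest FK506 mouse, and in Slc8a1 and Kcnj10 the gap was wider. Slc12a3, the thiazide-sensitive cotransporter that FK506 is known to affect, was 14.94, 14.97 and 14.98 against 15.24, 15.14 and 15.15. Its groups did not overlap either, but the estimate of -0.21 had a 95% interval of -0.73 to 0.31. Slc12a1, the furosemide-sensitive cotransporter, overlapped (-0.32). The kinase gene Wnk4 (-0.30), the calcium-binding protein gene Calb1 (-0.42) and the prostaglandin receptor gene Ptger3 (-0.69) also did not overlap. Umod, the thick limb protein uromodulin, overlapped (-0.31).

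These levels were also set against the reference groups. The mean of the loop and distal tubule list was -0.19, -0.17 and -0.19 from healthy in MMF mice 1, 14 and 27 and 0.02, 0.07 and 0.20 in FK506 mice 3, 12 and 24, so all 3 MMF mice lay just under the healthy level and all 3 FK506 mice just over it. The collecting duct list gave 0.02, -0.10 and -0.15 in MMF and 0.18, 0.35 and 0.50 in FK506. The vehicle mice ranged from -1.01 to 0.01 on the first list and from -0.25 to 0.18 on the second. On the collecting duct list the prednisone mice stood at 0.23, 0.34 and 0.15. The multi-target mice stood at 0.35, 0.18 and 0.20 there, so a level above healthy was not particular to FK506. On the loop and distal tubule list prednisone gave -0.31, 0.11 and -0.02, and multi-target -0.02, 0.08 and 0.05. The median difference from vehicle was 0.22 in MMF and 0.54 in FK506 for the loop and distal tubule, and 0.04 and 0.32 for the collecting duct; both use the same vehicle mice.

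The distance was there without any single library. The median stayed between -0.31 and -0.22 for the loop and distal tubule and between -0.49 and -0.28 for the collecting duct when each of the 6 mice was left out in turn, including MMF mouse 1 (-0.31 and -0.44) and the FK506 mouse with adrenal transcripts (-0.30 and -0.33). With quantile normalization 25 of 26 and 16 of 18 members were below 0, with medians of -0.26 and -0.34.

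**Figure D4:**
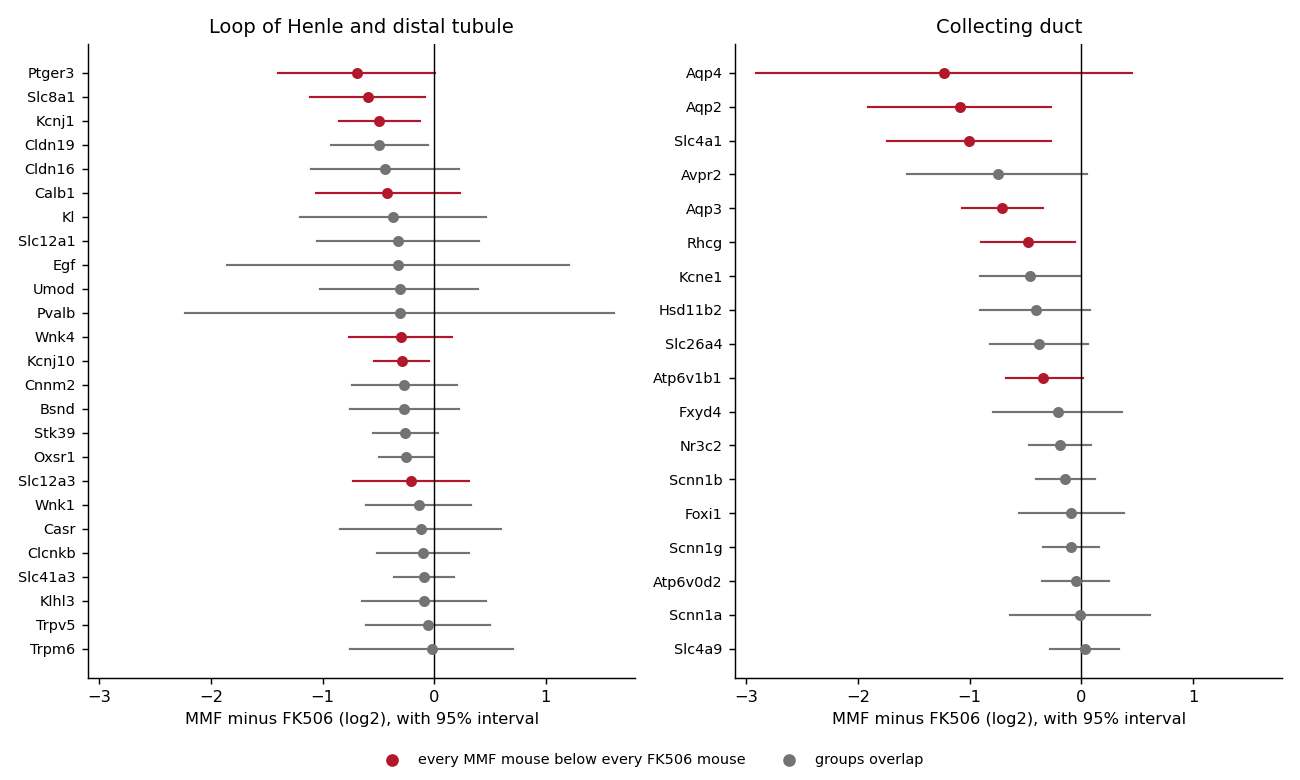
MMF minus FK506 difference (x axis, log2) with its 95% interval for 25 of the 26 genes of the loop of Henle and distal tubule list and the 18 genes of the collecting duct list (y axis), in order of size. Red marks genes in which every MMF mouse lay below every FK506 mouse; 1 gene of the first list is not shown, and over the whole lists 25 of 26 and 17 of 18 estimates are below 0.

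Macrophage and T cell markers varied more within MMF than between the drug means. The 22 macrophage and myeloid markers all had estimates below 0 (median -0.58, against -0.04 over all genes), and 0 of the 22 were wholly lower in MMF, against 5.31% of all genes. Their mean level above healthy was 2.25, 1.02 and 0.39 in MMF mice 1, 14 and 27 and 1.39, 1.98 and 2.05 in FK506 mice 3, 12 and 24, against 2.71 to 3.59 in vehicle. MMF mouse 1 was thus the highest and MMF mice 14 and 27 the lowest of the 6, and the median ran from -1.13 without MMF mouse 1 to -0.15 without MMF mouse 27. Clec4a3, a myeloid lectin receptor, was 8.32, 6.59 and 5.91 against 7.32, 8.94 and 8.35 (-1.27, SE 0.56). Csf1r, the receptor on which macrophages depend, and Itgam, CD11b, stood at -0.44 and -0.57.

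T cell markers were also lowest in MMF mice 14 and 27. Of 15 measured, 14 were below 0 (median -0.35), with mean levels of 1.18, 0.46 and 0.35 above healthy in MMF and 1.19, 0.89 and 0.98 in FK506. Lck, the kinase of the T cell receptor, was 8.19, 6.73 and 6.72 against 7.98, 7.75 and 7.88 (-0.66, 95% interval -1.55 to 0.24). The 5 natural killer and cytotoxic markers measured had a median of -0.34, with 1 above and 4 below 0, from -1.03 to 0.43. Among them Nkg7 stood at -0.35. B and plasma cell markers (10 measured) had a median of -0.25: Mzb1, a plasma cell chaperone, was 6.20, 6.62 and 7.68 against 8.57, 7.41 and 7.22 (-0.90), whereas Xbp1, a secretory cell factor that tubules also express, was wholly higher in MMF (0.30, 95% interval 0.04 to 0.57). Levels of Mzb1 overlapped only through MMF mouse 27.

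Interferon and antigen presentation genes had medians near 0 that moved with single mice. The median was 0.03 for 18 antigen presentation genes, -0.03 for 24 type I interferon-stimulated genes and -0.05 for 17 interferon gamma-induced GTPases and chemokines. As single mice were left out these medians ran from -0.38 to 0.42, from -0.20 to 0.29 and from -0.63 to 0.45, the lowest of each coming without MMF mouse 1. Ciita, the transactivator that switches on MHC class II genes, was 10.56, 9.45 and 8.48 in MMF and 10.05, 10.08 and 10.05 in FK506 (-0.57, 95% interval -1.52 to 0.39). The FK506 mice were almost equal in Ciita, and the MMF mice spread from above the FK506 level to near the healthy mean of 7.81. Tap1, the peptide transporter of MHC class I, was 11.71, 11.81 and 10.86 against 11.13, 10.92 and 11.13 (0.40). Cxcl9, a T cell attractant induced by interferon gamma, was 9.68, 5.64 and 5.78 against 8.46, 6.56 and 9.01 (-0.98). Mx2, annotated as a polymorphic pseudogene in mouse, was wholly higher in MMF at 6.98, 7.72 and 7.25 against 6.82, 6.91 and 6.84 (0.46, 95% interval -0.17 to 1.09). Its estimate was the highest of the type I interferon list, in which 12 genes lay above and 12 below 0.

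Chemokine and cytokine genes (19 measured) had a median of -0.06, with 7 above and 12 below 0, from -1.38 to 1.63. Complement genes (15) had a median of -0.01, with 7 above and 8 below 0, from -1.38 to 0.78. Ccl4, a chemokine for monocytes and T cells, was wholly lower in MMF at 5.52, 4.68 and 4.03 against 5.83, 6.04 and 5.93 (-1.19, SE 0.55). In Ccl4 MMF mouse 1 came nearest to the FK506 mice, and all 6 libraries lay under the vehicle mean of 7.05. C1qb, a subunit of complement C1q made by macrophages, was -0.68.

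Over the genes that separate diseased from healthy kidney the drugs overlapped. For the 2353 genes higher in vehicle than in healthy mice (limma adjusted p under 0.05), the mean level above healthy was 0.82, 0.67 and 0.45 in MMF mice 1, 14 and 27 and 0.68, 0.82 and 0.70 in FK506 mice 3, 12 and 24, against 0.98 to 1.62 in vehicle. The median MMF minus FK506 difference of these genes was -0.05, and MMF was lower in 1429 of them (60.7%, against 58.4% of all genes). For the 1016 genes lower in vehicle, the level was -0.60, -0.65 and -0.50 in MMF and -0.47, -0.52 and -0.45 in FK506. MMF mouse 27 lay between FK506 mice 3 and 12 here, so the groups overlapped, and MMF was the lower group in 724 genes (71.3%).

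**Figure D5:**
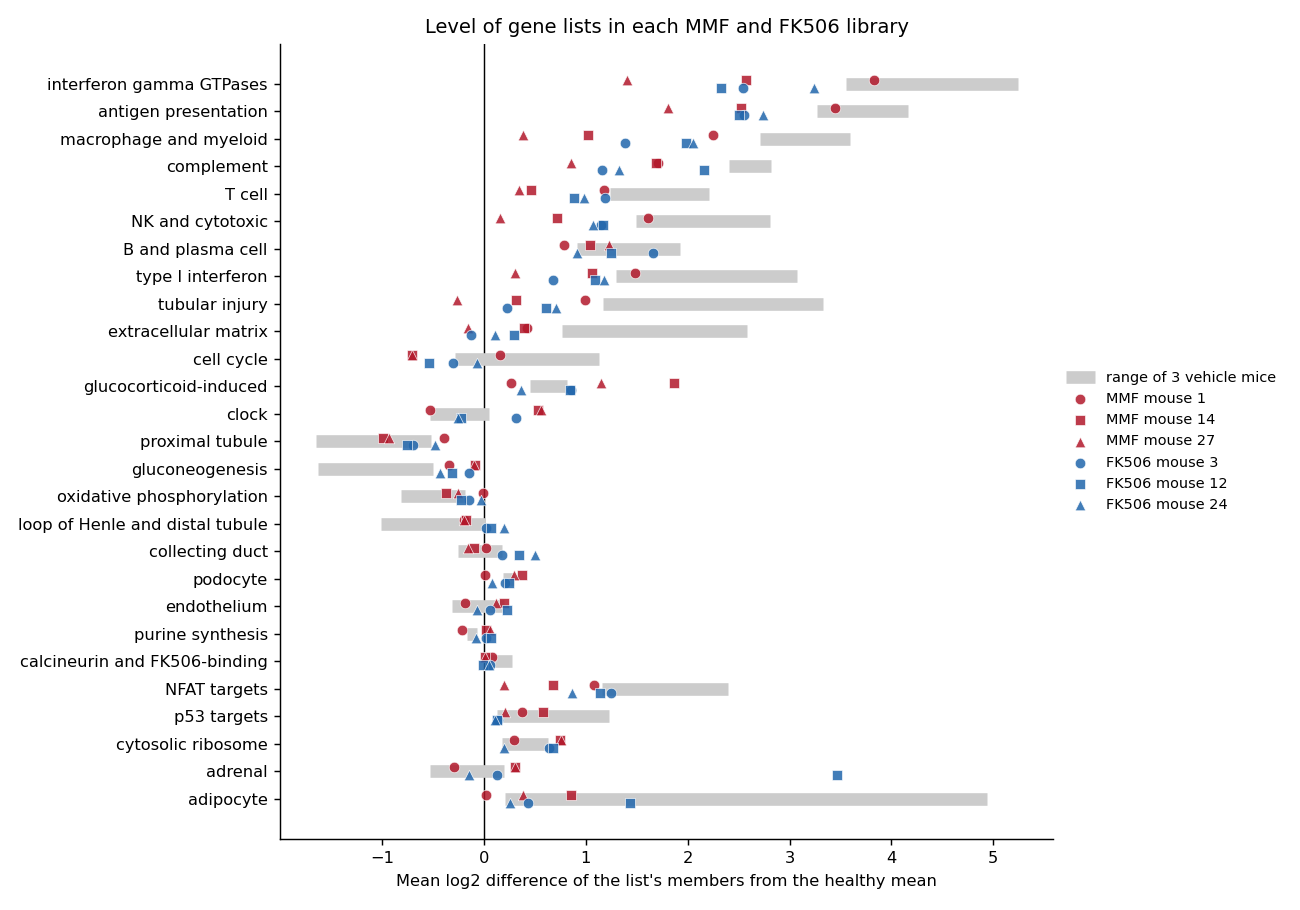
Mean log2 difference of the members of 27 gene lists from the healthy mean (x axis) in each MMF (red) and FK506 (blue) library, with the range of 3 vehicle mice as grey bars. On the macrophage list MMF mice run from 0.39 to 2.25 and FK506 mice from 1.39 to 2.05; on the loop of Henle, collecting duct and p53 target lists the drug groups do not overlap.

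Injury, matrix and cell cycle genes overlapped between the drugs as lists. The 21 tubular injury genes had a median of -0.09, at 0.99, 0.32 and -0.26 above healthy in MMF and 0.23, 0.61 and 0.71 in FK506. Saa3, an acute phase protein made by injured tubules and macrophages, was wholly lower in MMF at 4.92, 5.55 and 4.28 against 7.76, 6.02 and 5.66 (-1.57, SE 0.52), where vehicle stood at 7.66. Krt18, a keratin of stressed tubules, was wholly higher at 9.79, 9.94 and 9.80 against 9.25, 9.62 and 9.55 (0.37). Saa3 and Krt18 belong to the same list and lay on opposite sides of 0. Hmox1, heme oxygenase, was 10.83, 8.70 and 8.08 against 9.76, 10.34 and 10.10 (-0.86). The 26 matrix genes had a median of 0.09, at 0.42, 0.40 and -0.15 in MMF and -0.12, 0.30 and 0.11 in FK506, so here MMF mouse 14 was level with MMF mouse 1. In that list Lox, the collagen crosslinking oxidase, stood at 1.01 (95% interval -0.51 to 2.54) and Tgfb1 at -0.51.

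The 28 cell cycle genes had a median of -0.07 and levels of 0.16, -0.70 and -0.70 from healthy in MMF and -0.30, -0.54 and -0.07 in FK506. Of these genes 11 lay above and 17 below 0, from -0.85 to 0.42. Wholly higher in MMF were 2 of the 28 (against 1.5% of all genes), and 0 were wholly lower. Ccnd1, cyclin D1, had the lowest estimate of the list, at 14.02, 12.64 and 12.55 against 14.09, 13.63 and 14.06 (-0.85, 95% interval -1.77 to 0.06). Top2a, a marker of dividing cells, was -0.47. In Ccnd1 MMF mouse 1 again stood with the FK506 mice. Of 15 genes induced by p53, 10 lay above 0 (median 0.11) and 3 were wholly higher in MMF (against 1.5% of all genes), among them Sesn2 and Plk2, a polo-like kinase (0.61). The mean level of that list was 0.38, 0.58 and 0.21 above healthy in MMF and 0.14, 0.13 and 0.11 in FK506, so the groups did not overlap, but the median turned to -0.08 without MMF mouse 1. Trp53inp1, another p53-induced gene, was 10.95, 13.48 and 12.95 against 12.05, 11.34 and 10.67 (1.11). The 16 immediate early and heat shock genes had a median of -0.01, with Jun wholly higher in MMF at 11.11, 13.19 and 11.46 against 10.80, 10.88 and 10.92 (1.05, 95% interval -0.09 to 2.19).

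Several metabolic and hormone-responsive genes stood highest in MMF mice 14 and 27. Of 20 glucocorticoid-induced genes 18 had an estimate above 0 (median 0.38), with levels of 0.27, 1.87 and 1.15 from healthy in MMF and 0.86, 0.85 and 0.37 in FK506. Leaving out MMF mouse 14 brought that median to 0.04, and leaving out MMF mouse 1 raised it to 0.85. Errfi1, an inhibitor of the EGF receptor, was 14.89, 16.03 and 16.07 against 15.06, 15.01 and 14.65 (0.76, SE 0.29). Fkbp5, a glucocorticoid-induced binding protein of FK506, was 13.27, 14.72 and 14.06 against 14.15, 13.66 and 13.06 (0.40, 95% interval -0.62 to 1.41). Pdk4, which restrains glucose oxidation, was 10.69, 12.92 and 11.42 against 10.31, 10.70 and 10.52 (1.17). In Pdk4 MMF mouse 1 was level with the highest FK506 mouse, and MMF mouse 14 stood highest. Sgk1, an aldosterone-induced and glucocorticoid-induced kinase that promotes sodium uptake in the distal nephron, had the lowest estimate of this list. It was 12.57, 13.40 and 12.79 in MMF and 13.68, 13.68 and 14.07 in FK506 (-0.89, SE 0.36), so its groups did not overlap.

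The 28 PPAR-alpha and fatty acid oxidation genes had a median of 0.04. Cyp4a14, a fatty acid hydroxylase induced through PPAR-alpha, was 14.47, 16.02 and 16.22 in MMF and 14.95, 14.93 and 14.38 in FK506 (0.82, SE 0.39). MMF mice 14 and 27 were above the Cyp4a14 healthy mean of 14.77, and MMF mouse 1 lay among the FK506 mice. Pck1, the rate-limiting enzyme of gluconeogenesis, was 16.84, 18.44 and 17.93 against 16.96, 16.57 and 16.55 (1.04, SE 0.47), and G6pc, which releases glucose, was 0.78, while the 12 genes of that list had a median of 0.06. The 24 proximal tubule genes had a median of -0.09, with Slc6a19, a neutral amino acid transporter, at 1.02 and Slc3a1, a subunit of the cystine transporter, at -0.39.

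Of the 39 respiratory chain and ATP synthase genes 36 were below 0, with a median of -0.07 and a range of -0.22 to 0.04. All 20 cytosolic ribosomal protein genes were above 0, with a median of 0.10 and estimates between 0.07 and 0.14. The ribosomal median ran from -0.05 to 0.24 as single mice were left out. The level of these genes was 0.30 in MMF mouse 1, 0.75 and 0.76 in MMF mice 14 and 27, 0.64 and 0.68 in FK506 mice 3 and 12 and 0.20 in FK506 mouse 24 above healthy, so MMF mouse 1 and FK506 mouse 24 were the lowest 2 of the 6. Of 16 clock genes 13 were above 0 (median 0.18), at -0.53, 0.53 and 0.56 in MMF and 0.32, -0.22 and -0.25 in FK506. Ciart, a clock repressor, was 7.30, 9.74 and 10.44 against 9.34, 6.72 and 7.04 (1.46). The time of day at which kidneys were taken is not in the labels, and its part in these values was not tested.

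The fit without MMF mouse 1 was therefore looked at gene by gene. Without it, the 658 higher and 725 lower genes made 1383 (9.2%) that passed limma's adjusted test, with 2 MMF mice against 3 FK506 mice. Leaving out any of the other 5 mice gave 0 genes. Dusp14 then stood at -0.91 (adjusted p = 0.00111) and Sesn2 at 1.41 (adjusted p = 0.00295). Mavs was -0.44 (adjusted p = 0.0103) and Slc10a2 -2.06 (adjusted p = 0.0452). The genes given here with a p were picked from these same libraries, by a small p or after their values were seen. Their p-values are therefore descriptions. Igfbp1 was 3.72 higher in MMF mice 14 and 27 than in the FK506 mice. It was named above from the component that sets those MMF mice apart from MMF mouse 1, so its p is not given. Aqp3 (-0.81, adjusted p = 0.0198) and Kcne1 (-0.71, adjusted p = 0.0344), a potassium channel subunit, passed in the collecting duct list. Kcnj1 (-0.61, adjusted p = 0.0475) and Oxsr1 (-0.39, adjusted p = 0.0294), a kinase that activates salt cotransporters, passed in the distal list. These were 2 of 18 collecting duct and 2 of 26 loop and distal tubule genes, against 4.82% of all genes lower in that fit. Counts this small do not set the lists apart.

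Several of the named immune, stress and metabolic genes also passed in that fit. They too were picked from these same libraries, mostly for a small p within their lists, so their p-values are descriptions. Errfi1 (1.15, adjusted p = 0.0128), Cyp4a14 (1.36, adjusted p = 0.0163) and Trp53inp1 (1.86, adjusted p = 0.0174) were higher, and Hmox1 (-1.67, adjusted p = 0.0106) and Clec4a3 (-1.95, adjusted p = 0.0307) lower. Ppp3ca was 0.44 higher (adjusted p = 0.0109) and Ampd2 0.63 lower in MMF (adjusted p = 0.00653). Impdh1, Impdh2, Rcan1 and Fkbp5 did not pass in that fit either. The labels give no reason to leave out MMF mouse 1, and they describe it as they do the other MMF mice.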

How the data were processed

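RNA sequencing of kidney cortex in 18 mice gave 1 deposited table per mouse of log2 expression values for 15035 gene symbols. Per the labels' protocols, 1 ug of total RNA entered each TruSeq library. Both limma and mm10 appear in the submitters' processing notes, while for aligner, annotation and normalization a statement is not given in the sources used here. Using the deposited values, a factor per library was recovered of which 75.04% to 75.45% of gene values were whole multiples within 0.001 reads. The reads given per library sum all gene values over that factor, whole or not, and they cover counting error only. The 23 symbols turned into dates were tested and not named.

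The values were fitted unchanged, with no filter or pseudocount, as group means over all 18 libraries in limma (3.58.1, R 4.3.3), with a mean-dependent prior and 12 residual degrees of freedom. The contrast was MMF minus FK506, adjusted by Benjamini-Hochberg over all genes at 0.05, two-sided. The fit was tested on simulated data. Nothing says that mice came from separate experiments, so p-values measure the spread between these mice.

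The groups, the 38 gene lists and the naming rule were chosen with earlier results of these data known. The rule took the 12 non-overlapping genes of smallest p in each direction, up to 3 members of smallest p from each list, and 9 check genes. Chosen outside it after their values were seen were Slc10a2, the 10 genes of the first component, and the members of the loop, distal tubule and collecting duct lists beyond the first 3. Coordinates are from GENCODE on GRCm38 (mm10). Mouse numbers pair no samples. Results on some selected genes are not reported here.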

Additional observations from a re-analysis of the deposited data

How the results depend on the processing

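The count of 0 genes in limma held with only the 6 libraries compared, with only the Mrl/lpr libraries, with quantile normalization, median centring, no mean-dependent prior, a robust prior and without the lowest 25% of genes. It moved to 4023 genes with array weights, which gave MMF mouse 1 a weight of 0.0955 and whose estimation stopped before convergence. Over the 6 settings that leave out 1 mouse it ran from 0 to 1383, with the 1383 coming from leaving out MMF mouse 1; 2 MMF mice then share the spread estimated over all groups. At an unadjusted p under 0.05 those settings gave from 360 to 4121 genes, and the first 3 of the named fits 378, 591 and 738.

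Of 113 named genes, 36 passed in the same direction without MMF mouse 1, where 9.2% of all genes passed. With array weights 73 did, where 26.8% of all genes passed. Most of the named genes were chosen for a small p in these same libraries. The shares over all genes are therefore no yardstick for them. Genes near 0 turned direction. As single mice were left out, Fkbp1a ran from -0.30 to 0.12, Impdh2 from -0.09 to 0.17, Ppp3cb from -0.12 to 0.14, Ppp3r1 from -0.05 to 0.16, Nfatc1 from -0.01 to 0.27, Rcan1 from -0.75 to 0.07, Scnn1a from -0.24 to 0.28, Bpgm from -0.18 to 0.00 and Tgfb1 from -1.02 to 0.00. Genes of the first component did so too: Havcr1 ran from -1.96 to 0.73, Chrm2 from -2.80 to 0.50, Olfr178 from -0.99 to 1.69 and Psg16 from -1.16 to 1.82. With median centring Fkbp1a was 0.01 and Scnn1a 0.03, and with quantile normalization Scnn1a was 0.01. With array weights Scnn1a was 0.21, Hbb-bs 0.19, Slc12a1 0.06 and Impdh2 -0.06. The cause was not tested.

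The median changed sign in at least 1 setting for 28 of 38 lists. The 10 that kept it were those of purine salvage, NFAT targets, T cells, macrophages, cytotoxic cells, oxidative phosphorylation, glucocorticoid-induced genes, the loop and distal tubule, the collecting duct and sex-biased genes. No paired analysis was possible because MMF and FK506 mice share no numbers. The spread between 3 mice limits the precision, and the part of depth was not tested.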

Other observations

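Several gene lists outside the drug pathways and the main nephron segments were compared in the same way, and no member of any of them passed the adjusted test in limma. Vascular and glomerular genes centred on 0: the median was -0.01 for 12 endothelial genes, 0.01 for 14 podocyte genes and -0.06 for 23 renin-angiotensin and vasoactive genes. Ace, the angiotensin-converting enzyme, was 12.27, 11.84 and 11.03 in MMF mice 1, 14 and 27 and 12.09, 12.01 and 13.18 in FK506 mice 3, 12 and 24 (-0.72, 95% interval -1.75 to 0.32). Ptges, a prostaglandin E synthase, was -0.45. Of the endothelial genes 6 lay above and 6 below 0, from -0.32 to 0.21. The 9 neutrophil markers measured were 5 above and 4 below 0, from -1.73 to 1.05 with a median of 0.37, and FK506 mouse 12 had the highest mean level at 3.17 above healthy, against 1.23 to 2.07 in the other 5 libraries. The 13 androgen-regulated and sex-linked genes had a median of -0.14, with Prlr, the prolactin receptor, at 9.99, 7.78 and 8.71 against 9.18, 9.21 and 11.60 (-1.17).

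Markers of neighbouring tissues varied by library. The 13 adrenal markers had a median of -1.08, which was 0.08 without FK506 mouse 12. The 11 adipocyte markers had a median of -0.32, and FK506 mouse 12 was highest at 1.44 above healthy, against 0.02 to 0.86 in the other 5 libraries. The 9 urothelial markers had a median of 0.30, with MMF mouse 1 highest at 1.17. The 7 lymphoid stroma markers had a median of -0.12: Cxcl13, the B cell attractant, was 6.58, 8.70 and 7.16 in MMF and 8.99, 9.26 and 7.32 in FK506 (-1.04). The 6 red cell transcripts had a median of -0.31.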
